A study of Homo sapiens with 9 samples.

Results

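The 40 genes described here were HIF regulators (8 genes), classic targets of hypoxia-inducible factors (13 genes) and genes of glucose uptake and glycolysis (19 genes), taken by name from the 18970 genes of the tables. All 40 were present. They were followed in cranial neural crest cells (CNCCs), the embryonic cells that form much of the face, derived to passage 4 from the human embryonic stem cell line H9, which is long established. Both copies of SOX9 in the line carried a tag (FKBP12-F36V, mNeonGreen and V5) that the small molecule dTAGV-1 binds. Newly made RNA was read by SLAM-seq: cells took up 4-thiouridine (100 uM, 2 h), and this label is read as a T>C change. T>C reads therefore stand for RNA made during labelling, whereas total reads counted all RNA.

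The 9 libraries formed 3 groups of 3: cells with vehicle (DMSO) alone (0h), and cells with 500 nM dTAGV-1 for 3h or for 24h, labelled from 1 h and from 22 h after its addition. The labels give the relative SOX9 level as 100% at 0h and 0% at 3h and at 24h. Each group held the same 3 cultures, S9CC13_R6, S9CC47_R5 and S9CC47_R6, named for 2 clones (S9CC13 and S9CC47) and 2 differentiation batches (R5 and R6). Values below are listed in that order of cultures. Cells without the tag were not analysed here, so an effect of the molecule itself and an effect of SOX9 loss cannot be told apart. Both later groups were set against the same 0h libraries.

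HIF1A and EPAS1 are the oxygen-regulated subunits of the hypoxia-inducible factors, which pair with ARNT to switch on genes of blood vessel growth, glucose uptake and glycolysis. With oxygen present, the prolyl hydroxylases EGLN1, EGLN2 and EGLN3 mark these subunits, VHL binds the mark, and the ubiquitin ligase that VHL belongs to has them destroyed. HIF1AN, a further hydroxylase, blocks their contact with coactivators. dTAGV-1 brings the tagged protein to that same VHL ligase. The comparison therefore asked whether targets of the hypoxia factors rose at 3h or at 24h.

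Total reads per library ranged from 16955633 to 28782678, and T>C reads from 3130673 to 5475800, or 15.92% to 21.3% of the total. The 40 genes held 1.06% to 1.48% of total reads and 0.55% to 0.69% of T>C reads. All 8 of 8 cranial neural crest markers averaged 1 CPM (reads scaled to equal library totals) or more, and their summed level was 3610 to 3750 CPM at 0h, 4010 to 4420 at 3h and 4840 to 5300 at 24h. SOX9, the tagged gene, made up most of that shift, with 736 to 783 CPM before dTAGV-1, 1140 to 1470 at 3h and 1610 to 1860 at 24h. Of 4 pluripotent stem cell markers, POU5F1 and NANOG stayed at or under 0.0374 and 0.203 CPM. LIN28A and DPPA4 were present, and the list summed to 350 to 414 CPM at 0h, 304 to 349 at 3h and 281 to 306 at 24h. Within it LIN28A went from 315 to 374 CPM at 0h to 241 to 264 at 24h, whereas DPPA4 stayed between 34.2 and 44.6. Neural progenitor, endothelial and epithelial markers summed to at most 1.01, 0.515 and 0.609 CPM in any library, and neuron markers to 56.8 to 91.6 CPM, mostly TUBB3. The part of these shifts in the results below was not tested.

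The sequence that the hypoxia factors bind holds a core of ACGTG or GCGTG. Both cores were searched on both strands of promoter windows from RefSeq (GRCh38.p14), 250 bases before to 50 bases after the start site. Either core was found in 10 of 10 classic targets with a window, 14 of 18 glycolysis genes and 4 of 7 regulators, against 57.4% of 14903 protein-coding promoters. ACGTG alone was in 7 of 10, 8 of 18 and 2 of 7, against 23.9%, and GCGTG alone in 4 of 10, 10 of 18 and 2 of 7, against 45.7%. The windows below are printed 5′ to 3′ along the gene for genes the results turn on, with the core in capitals (CACGT or CACGC where it lies on the other strand). Capitals mark 1 core a line, and further cores in the PDK1, HK2 and BNIP3 windows are left in lower case. In the main DESeq2 fits, CITED2, PDK1, HK1 and HK2 were called in newly made or total RNA, HK2 only in total reads at 24h. BNIP3, LDHA and ADM were called at neither time in those fits, though edgeR called ADM lower in T>C reads at 24h.
CITED2, chr6:139374784-139374812, minus strand: agcctctgcagcACGTGccgcgggcggcg
PDK1, chr2:172556070-172556098, plus strand: cgccacgtccctCACGTaccactcggcag
HK1, chr10:69318903-69318931, plus strand: accgaccgtcccCACGCctgccgccccgc
HK2, chr2:74834067-74834095, plus strand: aatgggcgtgcgCACGTcactgatccgga
BNIP3, chr10:131982040-131982068, minus strand: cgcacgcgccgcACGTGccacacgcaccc
LDHA, chr11:18394367-18394395, plus strand: gactcccagcgcACGTGgagcagtctgcc
ADM, chr11:10304960-10304988, plus strand: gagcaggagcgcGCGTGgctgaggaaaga
In CITED2, BNIP3 and LDHA the core lies in the palindrome CACGTG, which matches on both strands at overlapping positions. The first base of the core in capitals lies at -152 from the start site in CITED2, -8 in PDK1, -149 in HK1, -48 in HK2, -133 in BNIP3, -184 in LDHA and -101 in ADM. The HK1 window belongs to a start site 217 bases from that of the canonical transcript. A core of the SOX family, AACAAT, was found in 6.3% of promoters and in 4 of the 35 here, among them CITED2 and HK2. In CITED2 it lies on the other strand at position 8, chr6:139374624-139374653, minus strand: gaaacacagctcATTGTTggcagctgccgg. These matches describe letters in a window and not bound sites.

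After 3h of dTAGV-1, no classic target was called higher in newly made RNA. Of 13, 12 had enough T>C reads to be tested, and 0 were called higher (DESeq2, adjusted p-value under 0.1), against 1.01% of all 12037 genes tested (0.789% were called lower). With no call, 0 of the 12 also had an unadjusted p-value under 0.05 in the higher direction, and edgeR called 0. The log2 fold change was above 0 in 11 of the 12, with a median of 0.17, a lowest of -0.37 (PDK1) and a highest of 0.89 (PFKFB4), whereas 47.7% of all genes lay above 0 and their median was -0.01. The median ratio of the targets was -0.03 in S9CC13_R6, 0.00 in S9CC47_R5 and 0.68 in S9CC47_R6 on the log2 scale, and without S9CC47_R6 the median log2 fold change was -0.05. NDRG1, BNIP3L, PFKFB4 and ANGPTL4 were higher at 3h in 3 of 3 cultures. For the first 3 of these the 3h values lay above all 0h values. How many of all genes show either pattern was not counted, so neither count is read as a result about the targets.

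VEGFA, the main growth factor for blood vessels, had 64.6, 64.1 and 64.0 normalized T>C reads (counts divided by the library's size factor) at 0h, 58.2, 52.8 and 106 at 3h, and 80.6, 57.1 and 58.5 at 24h. S9CC47_R6 at 3h stood above the other libraries, and the groups overlapped. The log2 fold change at 3h was 0.19 (SE 0.299, DESeq2 adjusted p = 0.998), and its 95% interval reached a 1.72-fold rise. ADM, a peptide that widens vessels, had 64.6, 46.0 and 121 normalized T>C reads in the 0h libraries, 63.5, 52.0 and 75.9 at 3h, and 20.9, 22.9 and 125 at 24h. Here S9CC47_R6 was highest at every time, and the 24h values of the other two cultures lay below all 0h values. Its log2 fold change at 24h was -1.04 (SE 0.687, DESeq2 adjusted p = 0.571).

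BNIP3, which marks mitochondria for removal, gave 187, 204 and 243 normalized T>C reads in the 0h libraries, 189, 185 and 251 at 3h, and 216, 205 and 210 at 24h. The 3 groups overlapped, and the interval of the 3h change ended at a 1.27-fold rise. The carbonic anhydrase CA9, a sensitive marker of hypoxia in many tissues, had 1 read in all 9 libraries together, in S9CC47_R5 at 3h, and 0 T>C reads. In the smallest library a count of 0 allows up to 0.177 CPM, a limit of counting error only.

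NDRG1, a stress-responsive gene, and the kinase/phosphatase gene PFKFB4 had the widest positive differences after 3h among the targets. NDRG1 had 20.8, 18.1 and 13.7 normalized T>C reads in the 0h libraries and 29.1, 32.05 and 24.5 at 3h (0.61 on the log2 scale, SE 0.458, DESeq2 adjusted p = 0.930). PFKFB4 had 16.7, 18.1 and 12.95 before dTAGV-1 and 21.2, 35.5 and 25.7 at 3h (0.89, SE 0.536, DESeq2 adjusted p = 0.814), with an interval that reached a 3.84-fold rise, and its sign did not hold at 24h (-0.75). BNIP3L, a relative of BNIP3, had 173, 149.9 and 154.6 in the 0h libraries and 202.4, 183.6 and 187.9 at 3h (0.24, SE 0.177, DESeq2 adjusted p = 0.930). In these 3 genes the groups did not overlap, at values of few reads for NDRG1 and PFKFB4, and none passed the test. KDM3A, a histone demethylase, and ANKRD37 differed by 0.19 and 0.15 at 3h.

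**Figure D1:**
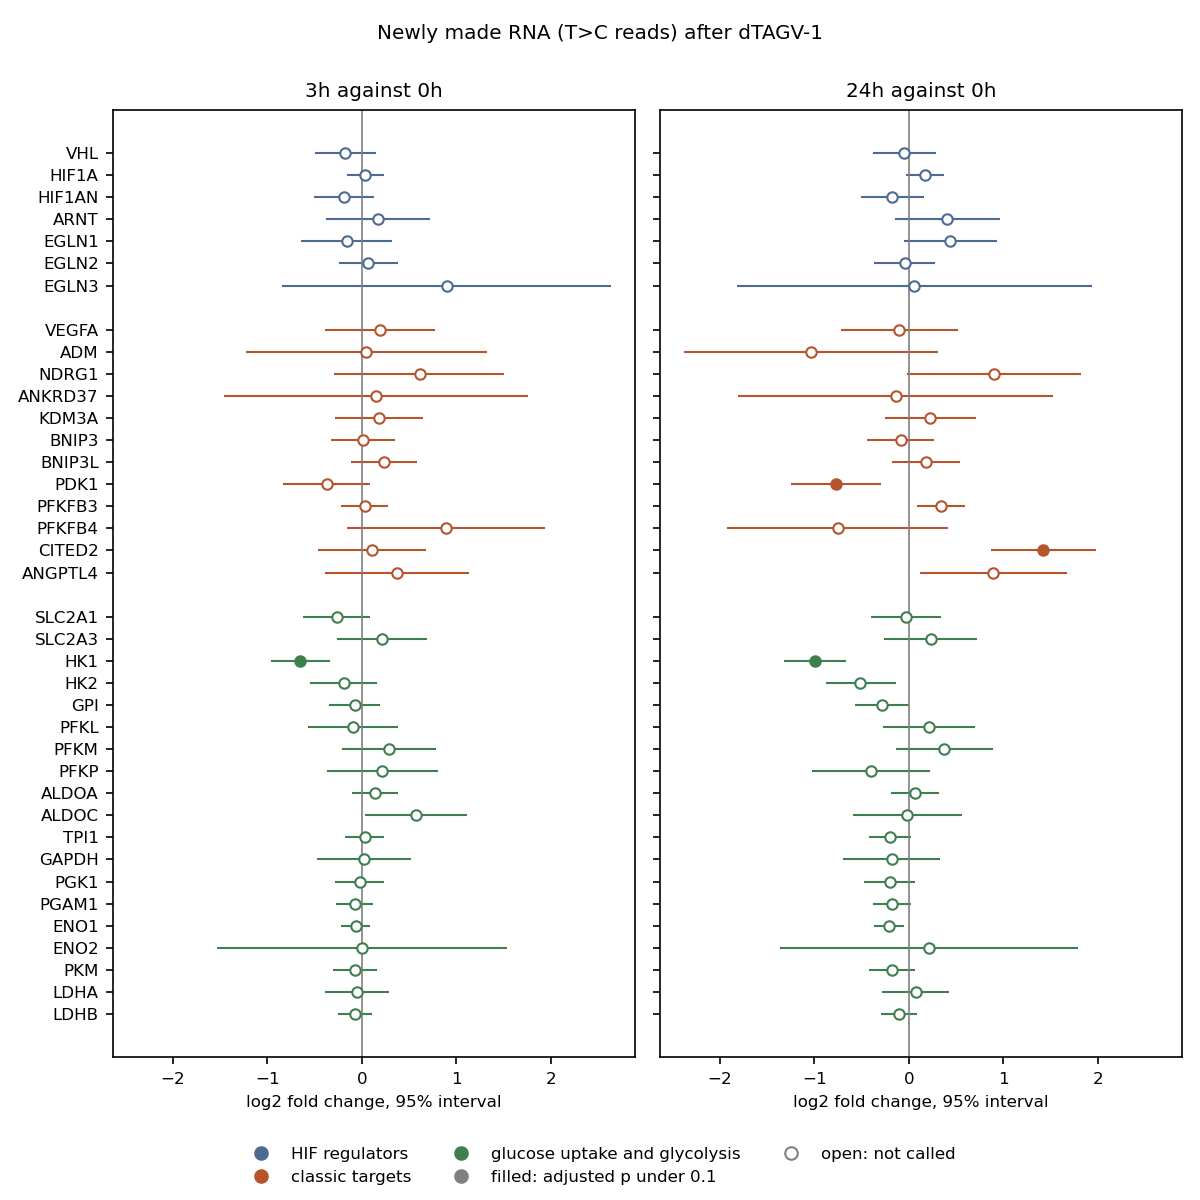
Log2 fold change of T>C reads for the 38 tested genes at 3h (left) and 24h (right) against 0h, on the x axis with 95% intervals and with genes on the y axis grouped by role. Filled points passed an adjusted p-value of 0.1: HK1 at 3h, and HK1, PDK1 and CITED2 at 24h.

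At 24h, CITED2 was the only classic target called higher in newly made RNA, and PDK1 the only target called lower. Over all 38 genes tested, 3 were called (7.89%), against 4.98% of all genes, with 1 higher (2.38% of all genes) and 2 lower (2.59%). The targets split evenly around 0, with 6 above and 6 below and a median of 0.04, beside a median of 0.00 for all genes. Unadjusted p-values under 0.05 were found for 3 targets in the higher direction (CITED2, PFKFB3 and ANGPTL4) and 1 in the lower (PDK1). edgeR called 2 higher and 2 lower, adding PFKFB3 and ADM.

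CITED2 binds the coactivators that HIF1A uses and thereby restrains it, and it is itself induced by the hypoxia factors and by other signals. It has 2 exons and lies at chr6:139371807-139374648 on the minus strand (hg38). It had 33.3, 50.8 and 39.6 normalized T>C reads in the 0h libraries, 19.8, 39.0 and 66.5 at 3h, and 103, 146 and 202 at 24h. The 24h values lay above all others, in 3 of 3 cultures, while at 3h only S9CC47_R6 was above its own 0h value. At 3h CITED2 differed from 0h by 0.11 on the log2 scale (SE 0.292, DESeq2 adjusted p = 0.998). By 24h the fit, which adjusts for batch and 1 surrogate variable, gave a rise by 1.42 (SE 0.283, DESeq2 adjusted p = 4.91e-05). That is 2.68-fold, with an interval that reached 3.94-fold. The log2 ratios of normalized reads within each culture, without that adjustment, were 1.63, 1.53 and 2.35, all above the fitted value. Total reads of CITED2 went from 45.4, 64.2 and 49.6 at 0h to 31.0, 48.2 and 80.1 at 3h and 145.9, 182.2 and 288.6 at 24h, a log2 rise by 1.56 against 0h (SE 0.247, DESeq2 adjusted p = 2.15e-08). Without any single culture the T>C call at 24h was lost where a surrogate variable was kept in the fit (1.18 without S9CC47_R5 to 1.73 without S9CC47_R6), and it was made in 3 of 3 such fits without that variable (1.58 to 2.07).

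PDK1 switches off pyruvate dehydrogenase and so holds pyruvate back from oxidation in the mitochondrion. It is a target that hypoxia usually raises. It had 152, 203 and 122 normalized T>C reads in the 0h libraries, 118, 128 and 112 at 3h, and 98.6, 77.9 and 107 at 24h. All 24h values lay below all 0h values, with the lowest and the widest fall in S9CC47_R5. The log2 fold change at 24h was -0.77 (SE 0.246, DESeq2 adjusted p = 0.0464). Total reads of PDK1 were 565, 725 and 454 at 0h and 436, 383 and 437 at 24h, a change of -0.58 (SE 0.154, adjusted p = 0.00339). The call in total reads was made under 8 of 16 alternatives. It was lost without the surrogate variable, and ended at a DESeq2 adjusted p of 0.1 with the culture as a replicate block. The T>C call was lost when any culture was left out (-1.19 without S9CC13_R6 to -0.38 without S9CC47_R5).

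HK1, the hexokinase that most tissues use for the first step of glycolysis, fell both early and late. It lies at chr10:69269984-69401884 on the plus strand (hg38). HK1 had 354, 360 and 404 normalized T>C reads in the 0h libraries, 262, 275 and 204 at 3h, and 165, 207 and 165 at 24h. No 3h or 24h library reached the lowest 0h value, and every culture (3 of 3) fell on each occasion. It was the only one of the 38 genes called at 3h (2.63%, against 1.79% of all genes), where it differed by -0.65 on the log2 scale (SE 0.156, DESeq2 adjusted p = 0.00336). At 24h the change was -0.99 (SE 0.164, adjusted p = 2.46e-07), to 0.502 of the 0h level. With a surrogate variable kept, the 24h call was lost without S9CC13_R6 (-0.78) and without S9CC47_R6 (-1.09) and held without S9CC47_R5 (-1.08), and without that variable it held in 3 of 3 such fits (-1.20 to -0.95). Leaving out any culture ended the 3h call, with log2 fold changes from -0.73 without S9CC47_R5 to -0.42 without S9CC47_R6.

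Total reads of HK1 followed later. They were 3074, 2864 and 3084 normalized reads at 0h, 2753, 3012 and 2144 at 3h, and 1389, 1566 and 1219 at 24h. The 3h values overlapped those at 0h, whereas all 24h values lay below. Against 0h, the 3h difference of -0.25 (SE 0.0870) gave a DESeq2 adjusted p of 0.157, and the 24h difference of -1.02 (SE 0.0919) a DESeq2 adjusted p of 3.62e-26. The T>C share of HK1, the percent of all HK1 reads that carried a conversion, averaged 12.6% ± 1.25 before dTAGV-1 (SD, n = 3), then 8.79% ± 0.822 at 3h, and 13.8% ± 1.51 by 24h. The share at 3h lay below that at 0h and 24h in every culture, a difference for which no test was run. The share over all genes went from 18.53% to 15.92% between 0h and 3h in S9CC13_R6, from 20.12% to 18.14% in S9CC47_R5 and from 18.79% to 19.52% in S9CC47_R6. The shares of ENO1, LDHB, HIF1A, VHL, HIF1AN, PFKFB3 and SLC2A1 were likewise lowest at 3h in every culture. Means at 0h, 3h and 24h were 8.95%, 8.27% and 9.38% for ENO1 and 9.69%, 8.54% and 10.2% for LDHB. How many of all genes show this order was not counted.

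**Figure D2:**
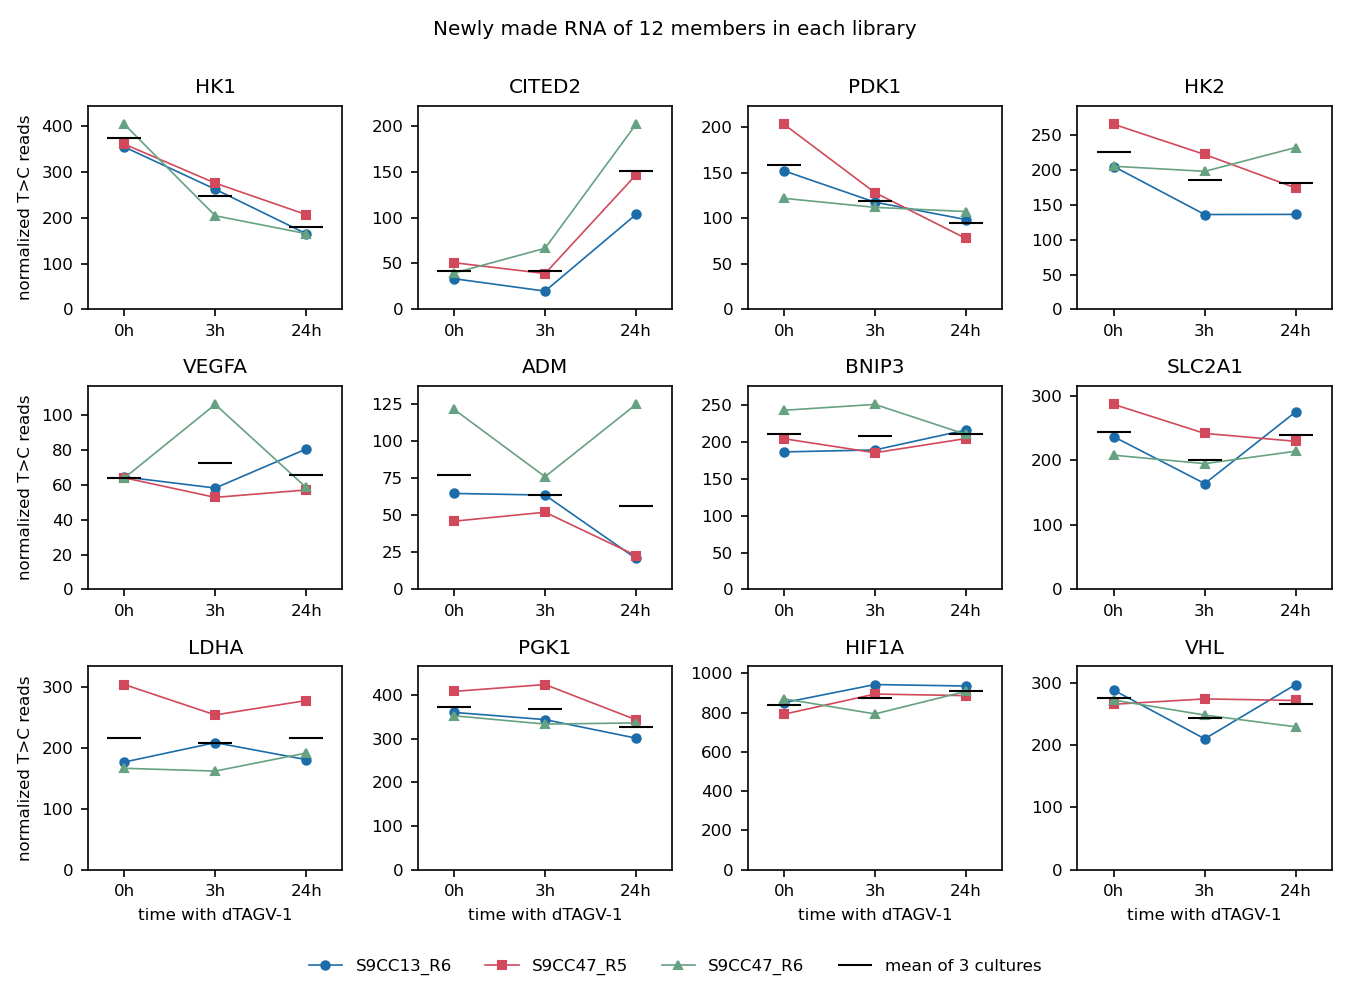
Normalized T>C reads (y axis, from 0) of 12 genes in each of the 9 libraries by time with dTAGV-1 (x axis); lines join the 3 libraries of a culture and black bars are means of 3. HK1 falls in each culture, CITED2 rises between 3h and 24h, and most targets overlap between times.

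No other gene of glucose uptake and glycolysis was called in newly made RNA. Of 19, all were tested, 0 were called higher at either time and only HK1 was called lower, beside 1.01% higher and 0.789% lower among all genes at 3h, and 2.38% and 2.59% at 24h. An unadjusted p-value under 0.05 was reached by 1 gene in each direction at 3h, and at 24h by 0 in the higher and 4 in the lower direction (HK1, HK2, GPI and ENO1). HK2 at 24h had a log2 difference of -0.51 (SE 0.190, DESeq2 adjusted p = 0.125), and it was called lower by edgeR and with a minimum mean of 20 counts. ENO1 was called lower with the culture as a replicate block (DESeq2 adjusted p = 0.0647). PFKP, a phosphofructokinase, lay at -0.40 with an SE of 0.318. The median log2 fold change was -0.05 at 3h and -0.18 at 24h, when 13 of 19 were below 0, beside 0.00 for all genes. SLC2A1, the main glucose transporter induced by hypoxia, had 237, 287 and 208 normalized T>C reads in the 0h libraries, 164, 242 and 195 at 3h, and 275, 230 and 214 at 24h. These values overlapped, and the interval of the 3h change (-0.27, SE 0.183) allowed at most a 1.07-fold rise.

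PGK1, the first enzyme of the pathway to yield ATP, had 361, 409 and 353 normalized T>C reads in the 0h libraries, 344, 424 and 334 at 3h, and 302, 344 and 336 at 24h. Its values at 24h lay just below those at 0h, with a change of -0.20 (SE 0.139, DESeq2 adjusted p = 0.600), and at 3h a rise above 1.18-fold lay outside the interval. LDHA, which turns pyruvate into lactate, had 177, 305 and 167 normalized T>C reads in the 0h libraries, 209, 255 and 162 at 3h, and 181, 278 and 192 at 24h. S9CC47_R5 was highest at each time, and times overlapped (3h change -0.05, SE 0.173, with an upper bound of 1.22-fold). ALDOC, an aldolase, was the only gene of the class with an unadjusted p-value under 0.05 in the higher direction at 3h (0.57, SE 0.276, DESeq2 adjusted p = 0.657).

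The HIF regulators gave no call in newly made RNA, with 7 of 8 tested, a median log2 fold change of 0.04 at 3h and 0.06 at 24h, and 0 with an unadjusted p-value under 0.05 at either time (edgeR also called 0). HIF1A itself had 851, 792 and 871 normalized T>C reads in the 0h libraries, 943, 895 and 794 at 3h, and 936, 887 and 908 at 24h. VHL had 289, 266 and 273 at 0h, 210.4, 274.6 and 248.6 at 3h, and 298, 272 and 230 at 24h. Both spanned a narrow range, with 3h changes of 0.04 (SE 0.0985) and -0.18 (SE 0.166), and neither says how much of the protein was present. EPAS1 was nearly absent, with 12 total reads in 7 of 9 libraries, and was not tested.

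EGLN3, a prolyl hydroxylase gene that hypoxia factors themselves induce, had few reads: 3.13, 6.05 and 5.33 normalized T>C reads in the 0h libraries, 14.6, 8.66 and 5.84 at 3h, and 5.69, 2.08 and 6.67 at 24h. It was higher at 3h in 3 of 3 cultures, but the log2 fold change of 0.90 had an SE of 0.889 (DESeq2 adjusted p = 0.979), so a 6.25-fold rise lay within the interval. In total reads EGLN3 was below the test's minimum, with 4.04, 11.6 and 8.52 normalized reads at 0h, 18.8, 15.8 and 21.2 at 3h and 14.5, 5.59 and 14.0 at 24h. There the 3h values lay above all 0h values. With 115 reads over 9 libraries, a change of this gene was not resolved at this depth.

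In total reads, no member was called at 3h (0 of 36 tested, against 1.89% of all genes, 1.11% higher and 0.777% lower; DESeq2). Only HK1 had an unadjusted p-value under 0.05 (1 of 36), and edgeR called 0. At 24h, 11 of 36 were called (30.6%), against 15% of all 11710 genes, with 4 higher (7.11% of all genes) and 7 lower (7.85%). Of 11 classic targets tested, 3 were called higher (CITED2, ANGPTL4 and PFKFB3) and 1 lower (PDK1). Their median was 0.22 at 24h, with 7 of 11 above 0. At 3h it was 0.09, with 9 of 11 above 0 and no call. Glycolysis made up most of the lower calls at 24h, with 5 of 19 lower and 0 higher. Of the 19, 15 were below 0 (median -0.14, beside 0.00 for all genes, of which 50.6% were above 0). At 3h, 15 of 19 were likewise below 0 (median -0.04) with no call, while 48.1% of all genes were above 0. The summed level of the pluripotent markers was also lower at 24h, through LIN28A, and that of the crest markers higher, mostly through SOX9. The count moved with the fit, to 7 of 36 with the culture as a replicate block, where 1717 of all 11710 genes were called in place of 1751, and to 1 to 4 without any single culture, where 154 to 1323 of all genes were.

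ENO1, the main enolase, had 50040, 53980 and 51350 normalized total reads at 0h and 45120, 42830 and 41070 at 24h. The groups did not overlap, and differed by -0.25 on the log2 scale (SE 0.0757, DESeq2 adjusted p = 0.0126). GPI, which forms fructose phosphate, went from 6341, 6923 and 7252 to 5565, 5774 and 5735, again without overlap (-0.25, SE 0.0833, adjusted p = 0.0355). PKM, the last kinase of the pathway, went from 24580, 23770 and 31240 to 20790, 22630 and 21560 (-0.26, SE 0.101, adjusted p = 0.0836). Without S9CC13_R6 the PKM value turned to 0.04, and the PKM call was not made without the surrogate variable. HK2, the hexokinase that hypoxia can induce, had 313, 484 and 322 at 0h and 229, 272 and 425 at 24h. These overlapped, and S9CC47_R6 was higher at 24h than at 0h. The call (-0.57, SE 0.153, DESeq2 adjusted p = 0.00387) was not made without the surrogate variable and ended with the culture as a replicate block (adjusted p = 0.409).

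Among the 4 members called higher in total reads at 24h, CITED2 changed most. ANGPTL4, a secreted inhibitor of lipoprotein lipase, had 98.9, 87.3 and 56.6 normalized total reads at 0h, 113, 123 and 91.9 at 3h, and 122, 158 and 114 at 24h. It was above its own 0h value at either time in 3 of 3 cultures, and the 24h difference on the log2 scale was 0.79 (SE 0.252, DESeq2 adjusted p = 0.0234). The call was lost in every fit without one of the cultures, with values from 0.40 without S9CC47_R6 to 0.94 without S9CC13_R6. In T>C reads the 24h change was 0.89 (SE 0.396, adjusted p = 0.256). PFKFB3, which makes an activator of glycolysis, had 630, 811 and 660 at 0h and 872, 940 and 839 at 24h, with no overlap (0.28, SE 0.112, adjusted p = 0.0948).

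Total HIF1A reads were 1930, 1589 and 1853 at 0h and 2128, 1942 and 1940 at 24h, and total VHL reads were 1512, 1347 and 1363 at 0h and 1159, 1240 and 1166 at 24h. HIF1A lay higher and VHL lower at 24h in 3 of 3 cultures. The log2 differences were 0.23 (SE 0.0816, DESeq2 adjusted p = 0.0419) for HIF1A and -0.24 (SE 0.0977, adjusted p = 0.0933) for VHL. Neither call held with the culture as a replicate block (DESeq2 adjusted p = 0.342 and 0.150), and neither was made without the surrogate variable. Newly made RNA gave no call for either gene.

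**Figure D3:**
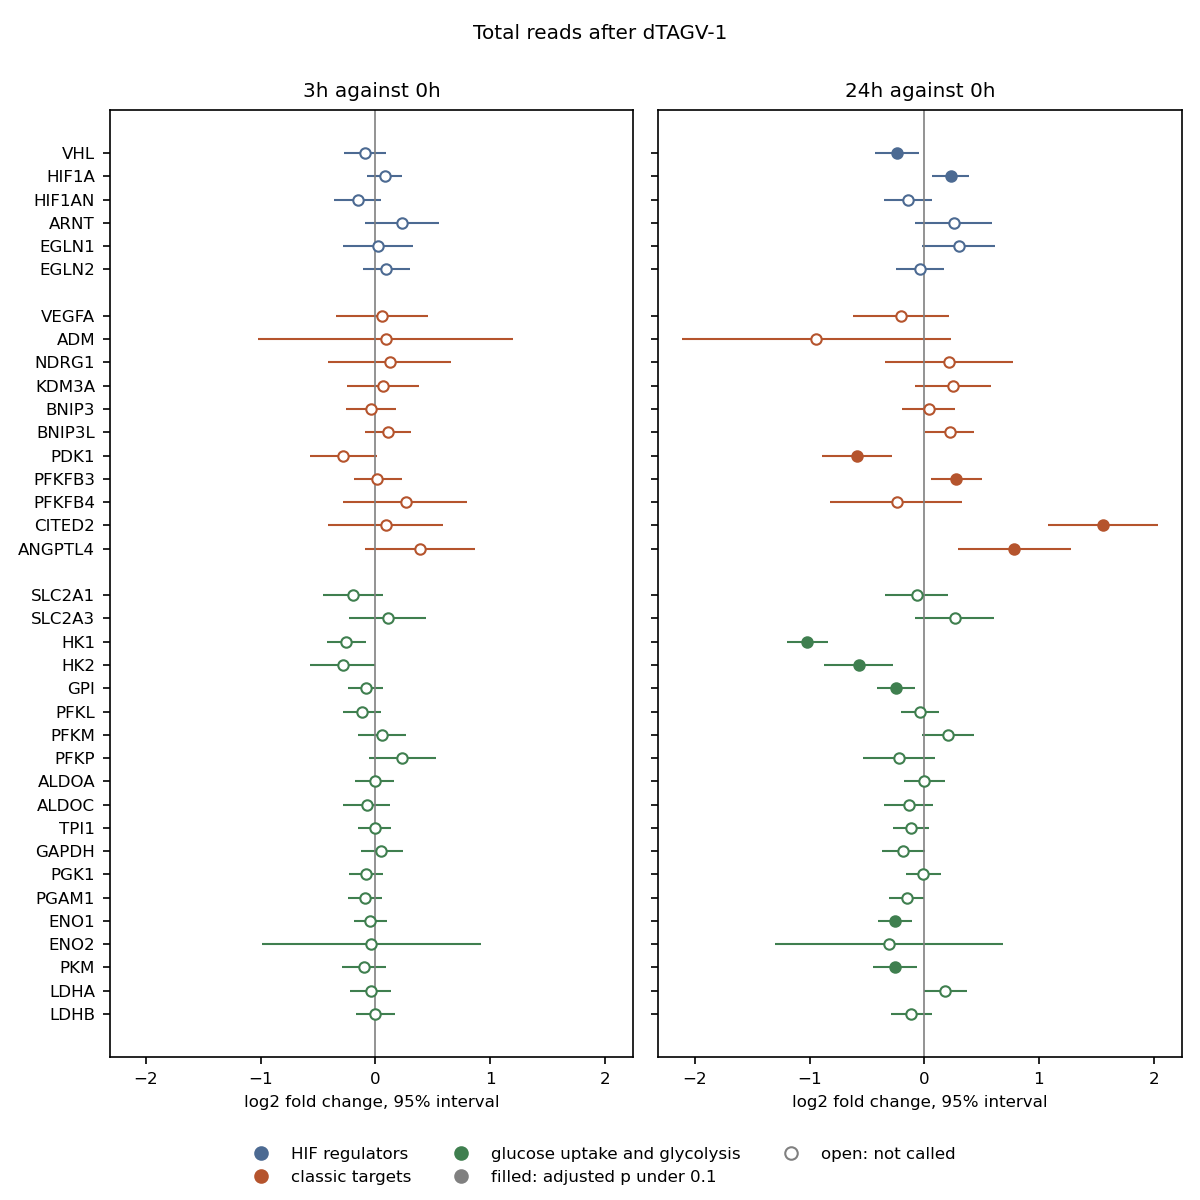
Log2 fold change of total reads for the 36 tested genes at 3h (left) and 24h (right) against 0h, on the x axis with 95% intervals and with genes on the y axis grouped by role. No point is filled at 3h, and 11 are filled at 24h (adjusted p-value under 0.1), 5 of them lower genes of glycolysis.

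The 24h and 3h groups were also compared with each other. In newly made RNA, CITED2 was the only gene of the 38 called, higher at 24h by 1.31 on the log2 scale (DESeq2 adjusted p = 0.00274), against 1.14% of all genes (0.54% higher and 0.598% lower). In total reads 2 of 36 were called, against 5.39% (2.51% higher and 2.88% lower). They were CITED2, higher by 1.47 (adjusted p = 2.21e-06), and HK1, with a change of -0.77 (SE 0.0985, adjusted p = 3.36e-12).

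The T>C share was largest for the targets and smallest for glycolysis. At 0h this share, the percent of a gene's reads that carried a conversion, had a median of 34.6% over 11 classic targets. The median was 25.5% over 6 regulators and 8.95% over the 19 glycolysis genes. All 11685 genes with a mean of at least 20 total reads had a median of 27.1% and quartiles of 16.6% and 41.0%. The highest shares were those of CITED2 (78.8% ± 6.79), ADM (75.8%) and PFKFB3 (64.7%), and the lowest target was BNIP3L (14.5%). In glycolysis ALDOA stood lowest at 6.28%, whereas HK2 (62.3%), SLC2A1 (52.7%) and SLC2A3 (45.8%), a further glucose transporter, stood far above the other enzymes. The share also depends on how many U bases lie in the counted stretch of each gene, so it orders genes only roughly. Every library was labelled, so conversions from other sources could not be measured or taken off, which matters most where shares are low.

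**Figure D4:**
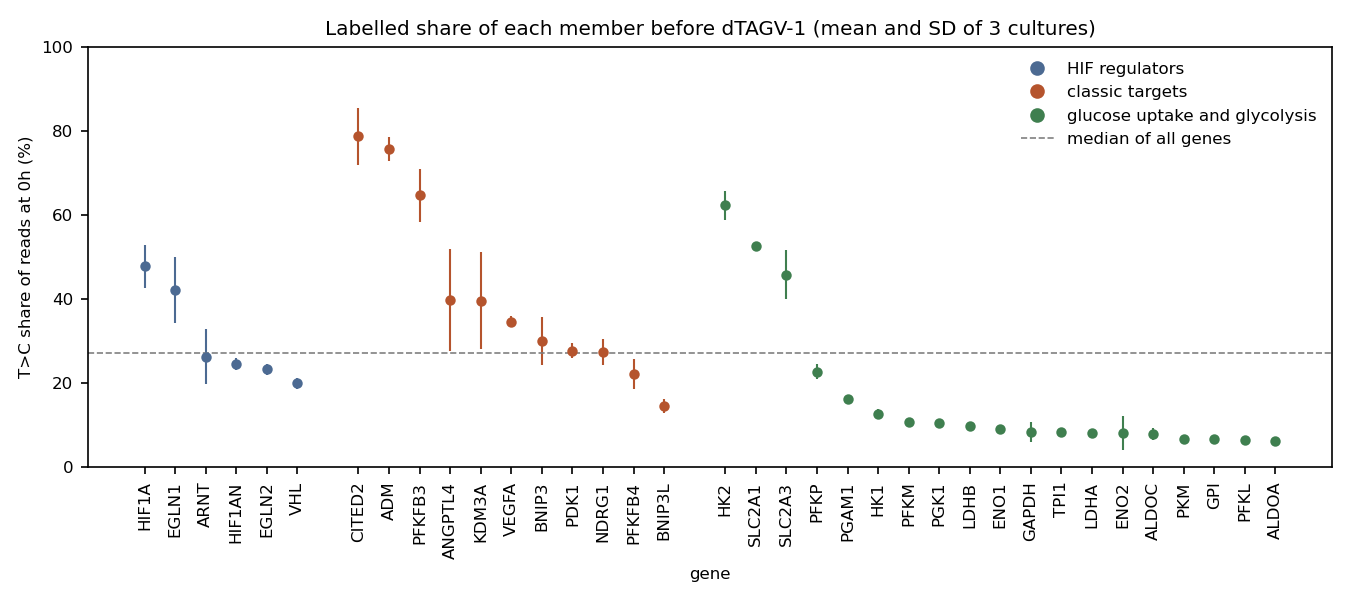
T>C share of reads at 0h (y axis, percent; points are means and bars SD of 3 cultures) for the 36 genes with a mean of at least 20 total reads (x axis), grouped by role. Most glycolysis genes lie far below the dashed median of all genes at 27.1%, and HK2, SLC2A1 and SLC2A3 lie above it.

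Some genes differed between cultures. Over all times, 3 of 36 genes differed between the cultures in total reads (8.33%, against 4.47% of all genes; DESeq2 likelihood ratio test, adjusted p-value under 0.1). LDHA averaged 2429 ± 250 normalized total reads in S9CC13_R6, 3605 ± 187 in S9CC47_R5 and 2275 ± 261 in S9CC47_R6 (SD over 3 times, DESeq2 adjusted p = 7.14e-07). The single culture of batch R5 was the high one, so batch and culture cannot be told apart. ADM averaged 66.6, 60.8 and 145 (DESeq2 adjusted p = 0.00360), with S9CC47_R6 the highest. PFKP averaged 271, 369 and 260 (DESeq2 adjusted p = 0.0937).

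Other genes of the pathway, from lists of textbook members, were read in the same fits. Of 39 other targets of the hypoxia factors, 37 were tested in newly made RNA, with 0 called higher and 1 lower at both 3h and 24h, beside 1.01% and 0.789% of all genes at 3h and 2.38% and 2.59% at 24h. That gene was HILPDA, a lipid droplet protein normally induced by hypoxia, for which the 3h difference was -0.34 (SE 0.108, DESeq2 adjusted p = 0.0915) and the 24h difference -0.39 (SE 0.113, DESeq2 adjusted p = 0.0181). In total reads at 24h, 2 of 34 were higher and 3 lower, beside 7.11% and 7.85% of all genes. LOX and PLOD2, enzymes that modify collagen, rose by 1.41 and 0.48 (DESeq2 adjusted p = 0.0155 and 0.0672), and AK4, HILPDA and RRAGD fell by 0.54, 0.29 and 0.60 on the log2 scale.

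None of the 5 genes of the VHL ligase's other parts (ELOB, ELOC, CUL2, RBX1 and NEDD8) was called against 0h in newly made or total RNA, and none of 8 partners and modifiers of the hypoxia factors in newly made RNA or 9 in total reads was called. Of 33 other genes of glycolysis, the pentose pathway and pyruvate use, 25 were tested in newly made RNA. PDP2, which reactivates pyruvate dehydrogenase, was called higher at 3h (0.41, SE 0.130, DESeq2 adjusted p = 0.0921), and SLC16A1, a lactate transporter, lower at 24h (-0.45, SE 0.0809, adjusted p = 3.73e-06). In total reads at 24h, RPE and TIGAR were called higher, and PDHA1, PDP2, PGM1 and SLC16A1 were among the genes called lower. PDHA1, a subunit of pyruvate dehydrogenase, fell by 0.43 after 3h and by 0.50 after 24h in log2 units (DESeq2 adjusted p = 0.000270 and 6.49e-06).

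Several of these genes have processed copies in the genome that could take a share of their reads. By name, the annotation lists 65 pseudogenes of GAPDH, 44 of BNIP3 and 13 of PGAM1, and their values are uncertain to that extent. HK1 and CITED2 have 0. The last exon of ANKRD37 overlaps UFSP2, and that of TPI1 overlaps SPSB2, on the opposite strand, and whether counting used the strand was not given in the sources used here.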

How the data were processed

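The authors deposited 2 tables of raw counts per gene symbol, of T>C reads and of total reads, with 9 library columns each, all used here (0 left out). Per the authors' methods, read 1 was trimmed of adapters and poly(A), mapped and counted with slamdunk and merged per gene. The labels give hg38. The counted regions and strand setting were not given in the sources used here, and no molecular identifiers were stated, so the limit from a count of 0 covers counting error only. Total and T>C depth bound the precision of each value.

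Raw counts of all 9 libraries entered DESeq2 1.42.0 (R 4.3.3). The terms were the differentiation batch, 1 surrogate variable (sva 3.50.0) and the time, following the study's methods. Protein-coding genes at 1 CPM or more in 3 or more libraries were tested (12037 by T>C reads, 11710 by total reads) without independent filtering. A call needed a p-value under 0.1 after Benjamini-Hochberg adjustment over all of them. Intervals are the log2 fold change ± 1.96 SE. Both are adjusted for batch and the surrogate variable, so the SE holds only the spread between libraries left after these terms. The surrogate variable was estimated from the same libraries and entered as if known. Normalized reads were obtained by dividing counts by the size factors of DESeq2. Cultures were compared with a likelihood ratio test of culture beside time. GENCODE release 44 gave coordinates and gene types, matched by symbol (18451 direct, 11 by RefSeq symbol, 390 by a RefSeq synonym, 118 unmatched), and promoters from RefSeq.

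The members and gene lists were chosen with earlier results of these data known. Values in every library are given for VHL, HIF1A, EPAS1, EGLN3, VEGFA, CA9, ADM, PDK1, BNIP3, SLC2A1, LDHA and PGK1 and for genes called between times, and other members by range and counts. EPAS1 and CA9 are given as reads over all libraries. Clone and batch in the sample titles pair libraries by culture. Deviations from group means correlated within a culture at a mean r of 0.174 for T>C reads (9 pairs, -0.074 to 0.522) and 0.278 for total reads (-0.071 to 0.624). Alternatives were edgeR 4.0.16, TMM factors, other covariates, filters and thresholds, genes of all biotypes, size factors from total reads, only the 6 libraries compared, and each culture left out. Fits leaving out a culture without a surrogate variable were added after seeing the data. Some results of the wider gene lists are not reported here.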

Additional observations from a re-analysis of the deposited data

Results flagged for a closer look

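The changes of CITED2 and HK1 differed between 3h and 24h by the direct test of those groups. CITED2 was higher at 24h than at 3h by 1.31 (T>C reads) and 1.47 (total reads) on the log2 scale, and was higher in 3 of 3 cultures in both. HK1 differed by -0.77 in total reads and was lower in 3 of 3 cultures. With 3 libraries a group, no search for single outlying libraries was made.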

How the results depend on the processing

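HK1 in total reads was called lower at 24h against 0h and against 3h under all 16 alternatives (adjusted p up to 0.00861 and 0.0829). CITED2 in T>C reads at 24h was called under 14 of 17 and PDK1 under 10 of 17. No alternative called CITED2 or PDK1 at 3h. The replicate block ended the calls of VHL, HIF1A, PDK1 and HK2 in total reads at 24h and no other call between times. With size factors from total reads, the median of all genes at 3h in T>C reads moved from -0.01 to -0.08, calls over all genes split into 84 higher and 147 lower in place of 121 and 95 (89 and 41 in place of 65 and 72 for 24h against 3h), and the regulators' median at 3h turned to -0.05.

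Counts of members called that moved by over 1.5 times were as follows. Against 3 calls in T>C reads at 24h, edgeR made 6 (the replicate block made 4, adding ENO1), and 0 to 3 were made when a culture was dropped. Against 1 call in T>C reads at 3h, 0 were made in each of these reduced fits, and against 1 at 24h over 3h, 0 to 1. Against 11 calls in total reads at 24h, the fit without surrogate variable made 6, the replicate block 7, the same block plus surrogate variable 5, time alone 5, and the 6 libraries compared 4, while dropping a culture made 1 to 4. Against 2 calls in total reads at 24h over 3h, 4 were made without surrogate variable, 7 with the replicate block (CITED2, ENO1, GAPDH, HK1, PFKFB3, PFKM and PFKP), 5 with all genes of at least 1 count, and 1 to 4 with a culture dropped (all genes: 631 calls, 901 without surrogate variable, 1546 with the block, 922 with at least 1 count). Against 0 calls in total reads at 3h, 1 was made (GAPDH) without S9CC47_R6. Against 3 calls between cultures, edgeR made 1.

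The regulators' median at 24h in T>C reads (0.06) was 0.13 by edgeR, -0.036 without surrogate variable, -0.043 in the replicate block fit, 0.11 when that block had a surrogate variable too, -0.0528 in the 6 libraries compared, and 0.147 to 0.216 with a culture dropped (-0.052 without S9CC13_R6 and surrogate variable). The glycolysis median at 3h (-0.05) was -0.0726 to 0.0554 with a culture dropped, and 0.0538 without S9CC47_R6 and surrogate variable. In total reads at 24h, PKM (-0.26) ranged from -0.36 to 0.04 with a culture dropped, positive without S9CC13_R6, and HK2 turned to 0.0457 without S9CC47_R5 and surrogate variable. The causes were not tested. A dropped culture with the surrogate variable kept leaves few residual degrees of freedom. CA9, EPAS1, EGLN3 and ANKRD37 had 1, 12, 115 and 144 total reads over 9 libraries, too few for a precise change.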

Other observations

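GAPDH, often used as a reference gene, had a T>C share that ranged from 4.32% to 11.5% over the 9 libraries. The coefficient of variation was 28.7%, whereas the median over 317 genes with a mean of at least 10000 total reads was 7.48%, and 2 of these genes varied more. By culture in the order S9CC13_R6, S9CC47_R5 and S9CC47_R6, the share was 6.59%, 11.0% and 7.44% at 0h, 4.32%, 7.26% and 10.1% at 3h, and 11.5%, 7.42% and 10.7% at 24h. No time was highest or lowest in every culture. Total GAPDH reads at 24h were lower than at 0h in 3 of 3 cultures (log2 fold change -0.18, SE 0.0978, DESeq2 adjusted p = 0.241).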
